A study of Rattus norvegicus with 47 samples.

Results

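The nuclear-encoded subunits of oxidative phosphorylation were taken from RNA-seq gene counts of rat brain by gene symbol: Ndufa, Ndufb, Ndufc, Ndufs and Ndufv subunits and Ndufab1 (complex I), Sdha to Sdhd (complex II), Uqcr genes (complex III), Cox4 to Cox8 genes (complex IV) and Atp5 genes (complex V), without the Ndufaf assembly factors. The rule found 81 of the 15319 genes in the tables: 37 of complex I, 4 of complex II, 8 of complex III, 15 of complex IV and 17 of complex V. A filter on low counts kept 78 members in each fit. The other 3 were Cox6a2 and Cox8b, isoforms known from heart and skeletal muscle, and Ndufs6-ps1, which the reference annotates as a pseudogene. Their median counts per library were 2.5, 2 and 3.5 in the striatum and 3.5, 1 and 4 in the cerebellum. None of the 13 genes encoded by mitochondrial DNA was a row of the tables. The rule sorts Ndufa4 and Ndufa4l2 with complex I by symbol, although the Ndufa4 protein is now regarded as a complex IV subunit.

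Complexes I to IV move electrons from NADH and succinate to oxygen and, except complex II, pump protons across the inner mitochondrial membrane. Complex V, the ATP synthase, uses the returning protons to make ATP, and neurons depend on this supply to restore ion gradients after firing. Each complex except complex II joins nuclear-encoded subunits to subunits made inside the mitochondrion, and the nuclear genes share binding sites for factors such as NRF1, the ETS factor GABP (NRF2) and YY1.

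The animals were Sprague-Dawley rats, assigned to a group at 39 days of age (males) or 42 days (females). PCB52 animals breathed 2,2′,5,5′-tetrachlorobiphenyl, a lower-chlorinated airborne biphenyl, from a nose-only apparatus for 4 h daily over 28 days, and sham animals went through the apparatus as controls. RNA from punches of both brain regions, taken from the same animals, was sequenced. Counts were held for 44 of 47 samples: in the striatum 4 sham males, 6 PCB52 males, 6 sham females and 6 PCB52 females, and in the cerebellum 5, 5, 6 and 6; the other 3 samples were not analysed here.

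Total counts ran from 5684508 to 8914523 per striatal library and from 6524400 to 15865054 per cerebellar library. Striatal projection neuron markers averaged 9.03 log2 CPM (CPM being counts scaled to TMM-adjusted library size) in the striatum and 2.79 in the cerebellum, and cerebellar granule cell markers 2.05 and 9.10. In 5 libraries, all labelled sham, Xist and the Y-linked Eif2s3y both exceeded 3 CPM: striatum male 3 and cerebellum males 9 and 11 and females 8 and 10. Xist was 265 and 314 CPM in the cerebellar libraries labelled male 9 and 11 and 135 CPM in the striatal one labelled male 3, against 178 to 870 CPM in the other cerebellar libraries labelled female, 249 to 929 CPM in the striatal libraries labelled female, and 1.63 CPM or less in the other libraries labelled male. Eif2s3y was 33.4 CPM in striatum male 3, 9.92 and 31.7 CPM in cerebellum males 9 and 11, and 32.9 and 4.20 CPM in cerebellum females 8 and 10. In the library of the same animal from the other region, only the transcript of the labelled sex exceeded 3 CPM. The source of the mixed transcripts was not tested. Comparisons that use these 5 libraries are also given without them. Several libraries stood apart in marker lists: striatum sham female 12 in olfactory bulb neuron markers (4.33 against a regional median of 1.02), striatum PCB52 female 20 in choroid plexus markers (8.10 against 1.7), cerebellum sham male 1 in choroid plexus markers (5.94 against 1.90) and striatum PCB52 female 22 in granule cell markers (5.55 against 1.68). Cortical excitatory neuron markers varied widely in the striatum, from 1.64 to 5.04 with a median of 2.80. They were highest in PCB52 female 14 (5.04) and PCB52 male 19 (4.82). In tissue punches, fewer cells of a type and less RNA per cell cannot be told apart.

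RefSeq promoter windows, from 250 bases before to 50 bases after the annotated start on GRCr8, were matched for 70 of the 81 members. They were searched on both strands for the NRF1 core GCATGCGC, the ETS core CCGGAAG and the YY1 core AAGATGGC; the last letters of the ETS core can overlap the first of the YY1 core. The windows below had the most motif kinds within their complex, with matches in capitals (a match on the other strand shows the reverse complement). They are shown as examples of where the cores stand in a window; they were picked for holding cores, and no core stands in all 5.
Ndufa6, an accessory subunit of complex I (chr7:115750268-115750567, minus strand): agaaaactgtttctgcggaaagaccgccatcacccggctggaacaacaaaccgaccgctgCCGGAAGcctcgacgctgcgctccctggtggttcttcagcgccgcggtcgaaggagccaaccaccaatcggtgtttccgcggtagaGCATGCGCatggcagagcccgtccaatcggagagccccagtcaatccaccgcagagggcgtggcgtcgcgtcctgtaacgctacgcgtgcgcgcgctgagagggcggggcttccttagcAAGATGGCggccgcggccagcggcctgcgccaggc
Sdhb, the iron-sulfur subunit of complex II (chr5:158547684-158547983, plus strand): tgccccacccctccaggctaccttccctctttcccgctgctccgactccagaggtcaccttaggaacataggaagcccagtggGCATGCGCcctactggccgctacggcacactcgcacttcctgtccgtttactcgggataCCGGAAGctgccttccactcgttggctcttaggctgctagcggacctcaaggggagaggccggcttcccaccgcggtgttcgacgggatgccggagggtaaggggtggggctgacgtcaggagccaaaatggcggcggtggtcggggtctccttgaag
Uqcrc1, a core protein of complex III (chr8:118467973-118468272, plus strand): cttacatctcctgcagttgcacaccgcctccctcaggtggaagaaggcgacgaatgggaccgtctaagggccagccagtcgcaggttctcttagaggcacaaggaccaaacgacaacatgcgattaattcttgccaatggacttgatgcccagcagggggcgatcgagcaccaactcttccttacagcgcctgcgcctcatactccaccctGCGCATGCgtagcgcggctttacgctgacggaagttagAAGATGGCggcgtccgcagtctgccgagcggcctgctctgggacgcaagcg
Cox8a, the ubiquitous subunit 8 of complex IV (chr1:213833574-213833873, minus strand): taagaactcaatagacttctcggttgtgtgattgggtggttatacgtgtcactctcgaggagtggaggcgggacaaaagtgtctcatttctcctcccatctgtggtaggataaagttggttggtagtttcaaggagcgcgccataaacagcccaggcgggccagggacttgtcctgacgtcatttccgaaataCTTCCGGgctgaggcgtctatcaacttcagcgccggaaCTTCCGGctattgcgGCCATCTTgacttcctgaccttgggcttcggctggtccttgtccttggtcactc
Atp5me, a membrane subunit of complex V (chr14:1464610-1464909, plus strand): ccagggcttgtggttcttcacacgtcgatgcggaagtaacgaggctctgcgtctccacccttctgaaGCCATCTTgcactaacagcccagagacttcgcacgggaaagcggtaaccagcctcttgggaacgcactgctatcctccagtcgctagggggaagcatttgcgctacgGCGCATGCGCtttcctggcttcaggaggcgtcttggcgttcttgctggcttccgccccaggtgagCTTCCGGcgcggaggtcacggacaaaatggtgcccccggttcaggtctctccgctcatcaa

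At least 1 of the 3 motifs stood in 32 of the 70 member windows (45.7%), against 24.1% of the 10101 windows of genes tested and 16.8% of all 19005 protein-coding windows. The ETS core was found in 30% of member windows and 16.7% of windows of genes tested, the YY1 core in 20% and 5.2%, and the NRF1 core in 11.4% and 4.78%. The NRF1 core stood in none of the 12 complex IV windows and in 4 of the 16 complex V windows, a difference that was not tested. The median GC content was 56.7% in member windows and 60.7% in windows of genes tested. These counts describe letters in the windows; binding was not measured.

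**Figure D1:**
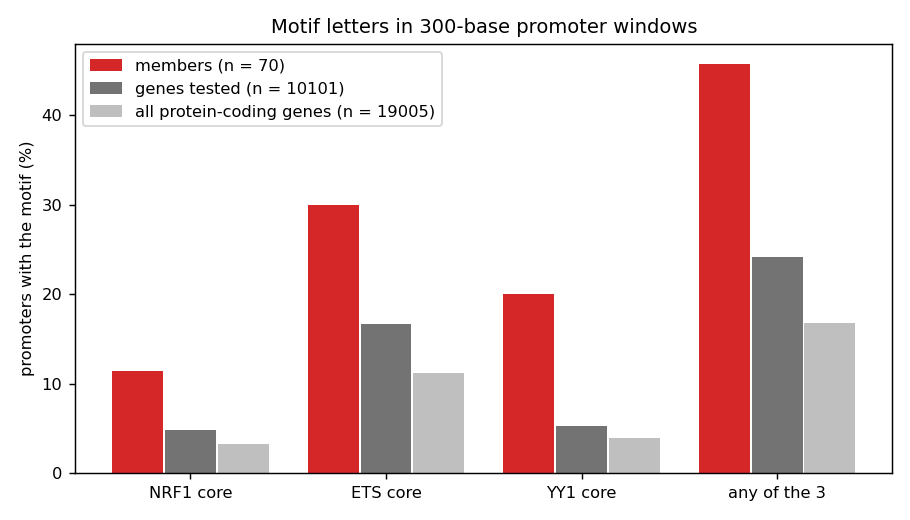
Share of promoter windows (y axis, percent) that hold the NRF1, ETS or YY1 core, or any of the 3, for the members, the genes tested and all protein-coding genes. For each core the member bar is the highest, at 11.4% for NRF1, 30% for ETS and 20% for YY1.

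The members varied together from library to library, along with the mRNAs of cytosolic ribosomal proteins, and a few libraries set the range in each region. Members took 1.11% to 2.21% of all counts in the striatum and 1.31% to 3.57% in the cerebellum. The mean over the 78 members was highest in striatum sham female 12, at 7.69 log2 CPM, and lowest in striatum PCB52 female 14, at 6.53. For 74 of the 78 members, sham female 12 was the highest striatal library. In the cerebellum the mean was highest in PCB52 male 23, at 8.50, which was the highest cerebellar library for 71 members, and lowest in sham male 1, at 6.71.

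Over 55 ribosomal protein genes, the same libraries led: 9.06 in striatum sham female 12 and 9.86 in cerebellum PCB52 male 23. Exactly 5 of the 44 libraries had a ribosomal mean above 9, namely these 2 and cerebellum PCB52 male 15 (9.31) and PCB52 females 16 (9.24) and 20 (9.44). The 4 cerebellar ones had member means of 8.07 to 8.50, while the 18 other cerebellar libraries lay at 7.63 or below. They also had granule cell marker means of 8.66 to 8.88 and astrocyte marker means of 6.92 to 7.21, both at the low end of the cerebellar ranges of 8.66 to 9.38 and 6.92 to 7.60. Other lists lay towards the high end: Purkinje cell markers at 8.65 to 8.87 (cerebellar range 8.34 to 8.87) and microglia markers at 4.20 to 4.41 (3.33 to 4.41). Because these 5 libraries stand apart, the members' median is also given without them (in the striatum, without sham female 12) and with the ribosomal mean as a covariate, both chosen after seeing the data. Since the ribosomal mean moves with the members, neither is an independent check.

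**Figure D2:**
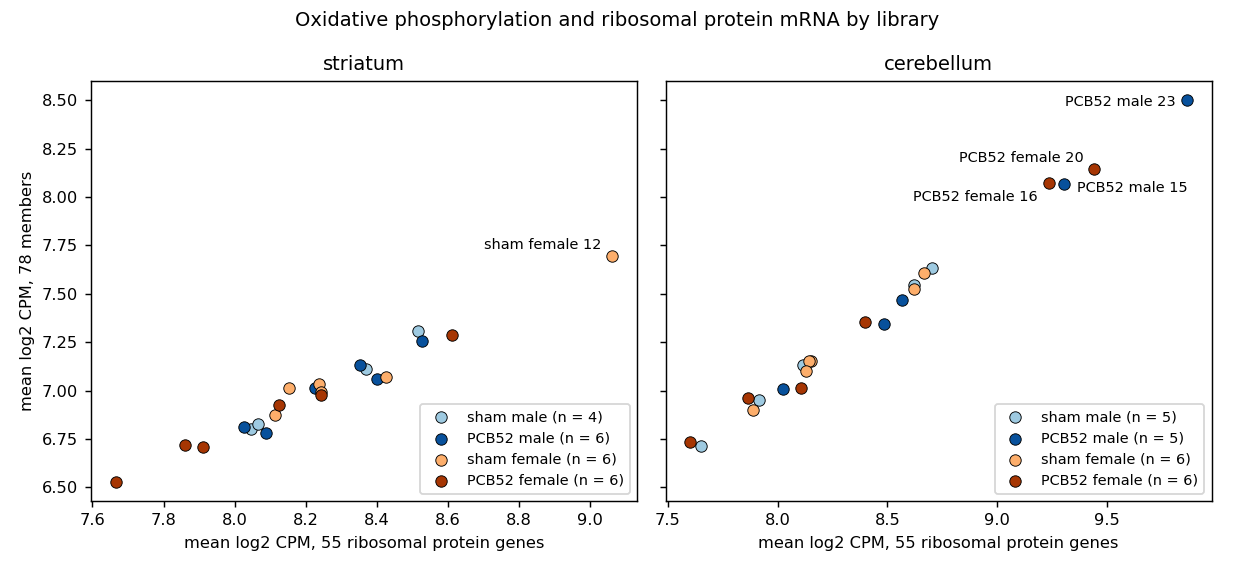
Mean log2 CPM of the 78 members (y axis) against that of 55 cytosolic ribosomal protein genes (x axis) in each library of the striatum and the cerebellum; each point is 1 library. The points lie close to a line in each region, and the 4 cerebellar libraries with member means of 8.07 to 8.50 are all from PCB52 animals.

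In the striatum of females, all 78 members were lower in PCB52 than in sham animals, by a median of 0.26 on the log2 scale, but no member passed the test. The share of all 12142 genes below 0 was 50.4%. The 5 complexes were displaced alike: the median log2 difference was -0.28 for complex I, -0.23 for complex II, -0.23 for complex III, -0.33 for complex IV and -0.26 for complex V. The middle 50% of the members covered 0.09 log2 units, and that of all genes 0.31. Member means were 6.87, 7.02 and 7.69 (lowest, median and highest) in the 6 sham females and 6.53, 6.82 and 7.29 in the 6 PCB52 females, so the groups overlapped.

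Ndufs4 (Entrez gene 499529), an accessory subunit of complex I whose loss causes Leigh syndrome, had the lowest p of its complex. It measured 97.2, 119 and 154 CPM (lowest, median and highest) in sham and 81.4, 99.7 and 119 CPM in PCB52 females, a log2 difference of -0.32 ± 0.11 (SE; adjusted p = 0.303, edgeR). Atp5mk, a small membrane subunit of the ATP synthase, had the largest difference, -0.53 ± 0.19 (adjusted p = 0.304, edgeR), with 97.5 to 234 CPM in sham and 73.7 to 144 CPM in PCB52 females. Uqcrc2, a core protein of complex III, differed by -0.21 ± 0.08, Cox5a, a matrix-side subunit of complex IV, by -0.38 ± 0.16, and Sdhd, a membrane anchor of complex II, by -0.26 ± 0.13. In each of these genes the values of the 2 groups overlapped. None of the 78 members had PCB52 and sham groups that did not overlap, in either sex or region; of all genes tested, 0.577% did in striatal females, 0.387% in striatal males, 0.231% in cerebellar females and 0.864% in cerebellar males.

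No gene of the 12142 passed an adjusted p of 0.05 in edgeR (0%), and 20 members and 13.4% of all genes had an unadjusted p under 0.05; DESeq2 called 23 genes and limma 0, none of them a member. Without sham female 12 the members' median was -0.11 with 75 of 78 below 0, and with the ribosomal mean as covariate it was -0.0021.

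In striatal males the members were spread around 0: 44 were lower and 34 higher in PCB52 animals, with a median of -0.02, and 49.9% of all genes were below 0. The sign of this median was not settled: it was -0.09 without sham male 1, 0.10 without sham male 9 and 0.02 without male 3, which held transcripts of both sexes. With the covariate it was -0.02. Member means were 6.80, 6.83, 7.11 and 7.31 log2 CPM in the 4 sham males and 6.78, 7.04 and 7.26 (lowest, median and highest) in the 6 PCB52 males. Among the members of lowest p in their complex, Uqcr10, a small subunit of complex III, differed by -0.27 ± 0.27 and Ndufc2, an accessory subunit of complex I, by -0.14 ± 0.19. No gene passed the test in edgeR (0%), 0 members and 0.898% of genes had an unadjusted p under 0.05, and DESeq2 called 1 gene and limma 0.

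The female difference minus the male difference was below 0 for all 78 members, with a median of -0.25, against 50.8% of all genes. It passed for no gene in edgeR (0%), DESeq2 or limma; 0 members and 3.88% of genes had an unadjusted p under 0.05, so a difference between the sexes was not shown. Without sham female 12 the median was -0.10, with the covariate 0.01, and without male 3 it was -0.28. Over both sexes, 77 members were lower in PCB52 animals with a median of -0.14 (-0.07 without sham female 12, -0.02 with the covariate and -0.12 without male 3), against 50.7% of all genes. No gene was called in that mean by edgeR (0%), DESeq2 or limma, and 2 members and 5.8% of genes had an unadjusted p under 0.05. In sham animals, striatal females exceeded males in 76 members, by a median of 0.11. The share of all genes above 0 in this comparison is not given here, so the count has no background. No member was among the 4 genes called by edgeR (0.0329%), and 0 members and 2.55% of genes had an unadjusted p under 0.05; without sham female 12 the median was -0.03, with the covariate -0.0048, and without male 3 it was 0.15.

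In the cerebellum the members lay on the other side: 77 of 78 were higher in PCB52 than in sham males, by a median of 0.58, and 73 of 78 in females, by 0.22, and again none passed the test. Of all 11690 genes, 50.7% were above 0 in males and 55% in females. In males the median was 0.58 for complex I, 0.48 for complex II, 0.58 for complex III, 0.63 for complex IV and 0.56 for complex V. Member means were 6.71, 6.95, 7.13, 7.55 and 7.63 log2 CPM in the 5 sham males and 7.01, 7.35, 7.47, 8.07 and 8.50 in the 5 PCB52 males. Male libraries 15 and 23 were above all sham males, and the other 3 lay within the sham range. In females the lowest, median and highest means were 6.90, 7.15 and 7.61 in sham and 6.74, 7.18 and 8.14 in PCB52 animals, with libraries 16 and 20 above the sham range and library 14 below it. In females all 5 complexes lay above 0 in the same way, with medians of 0.21, 0.15, 0.25, 0.26 and 0.22 for complexes I to V.

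Within complexes I and III the male medians differed by role, in a split that was made after the values were seen and was not tested. The 7 core subunits of complex I had a median of 0.41 and the 29 other complex I members 0.62. In complex III the 2 core proteins and the Rieske protein had a median of 0.33 and the 5 small subunits 0.60. Ndufs1 (Entrez gene 301458), the largest core subunit of complex I, was the only member below 0 in males. Its levels were 222, 249, 257, 266 and 267 CPM in sham males and 216, 225, 225, 226 and 259 CPM in PCB52 males, a log2 difference of -0.14 ± 0.08 (adjusted p = 0.313, edgeR), and in females the difference was -0.16 ± 0.07. Sdha, the flavoprotein subunit of complex II, differed by 0.02 ± 0.10 in males.

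Ndufa4l2 (Entrez gene 100362331), a paralog of Ndufa4 known as a target of hypoxia-inducible factor, had the lowest p of complex I in males. It measured 4.08, 4.19, 4.67, 6.74 and 6.81 CPM in sham males and 5.65, 6.75, 8.13, 10.9 and 11.3 CPM in PCB52 males, a difference of 0.66 ± 0.24 (adjusted p = 0.313, edgeR). Its highest values were in PCB52 males 15 and 23, and the groups overlapped. Uqcrh, the hinge protein of complex III, differed by 0.71 ± 0.33, Cox6c, a small subunit of complex IV, by 0.69 ± 0.33, and Atp5if1, the inhibitor of ATP synthase reversal, by 0.72 ± 0.35.

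No gene of the 11690 passed the test in males or in females in edgeR (0% in each). In males 8 members and 14.3% of genes had an unadjusted p under 0.05, and in females 1 member and 3.16% of genes; DESeq2 called 1 gene in males and 9 in females, limma 0, and no member was among them. Without the 4 cerebellar libraries of high ribosomal mean the median was 0.05 in males, with 60 members above 0, and -0.24 in females, with 77 below 0. With the ribosomal mean as covariate it was -0.05 in males and -0.02 in females. Leaving out PCB52 male 23 alone gave 0.29 in males, and leaving out PCB52 female 20 alone gave 0.02 in females. Without the 4 cerebellar libraries that held transcripts of both sexes the medians were 0.65 in males and 0.16 in females.

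Averaged over both sexes, 76 members were higher in PCB52 cerebella, by a median of 0.41, against 50.3% of all genes. No gene passed in edgeR (0%), 17 members and 14.8% of genes had an unadjusted p under 0.05, and DESeq2 called 21 genes and limma 0, with no member among them. Ndufa4l2 differed by 0.54 ± 0.16 and Ndufs1 by -0.15 ± 0.05 (adjusted p = 0.326 for each, edgeR). Without the 4 libraries the median turned to -0.11, and without PCB52 male 23 alone it was 0.26. It was -0.03 with the covariate and 0.41 without the libraries with transcripts of both sexes. The female difference minus the male one was below 0 for all 78 members, with a median of -0.34 (-0.07 without PCB52 male 23, -0.27 without the 4 libraries of high ribosomal mean, 0.03 with the covariate and -0.48 without the libraries with transcripts of both sexes), against 50.8% of genes; edgeR called none (0%) and limma 0, DESeq2 called 4 genes and no member, and 0 members and 2.17% of genes had an unadjusted p under 0.05. In sham animals, cerebellar females and males differed by a median of 0.03 (-0.0079 with the covariate and 0.14 without the libraries with transcripts of both sexes), with no gene called by edgeR (0%), DESeq2 or limma, and 0 members and 1.05% of genes at an unadjusted p under 0.05.

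**Figure D3:**
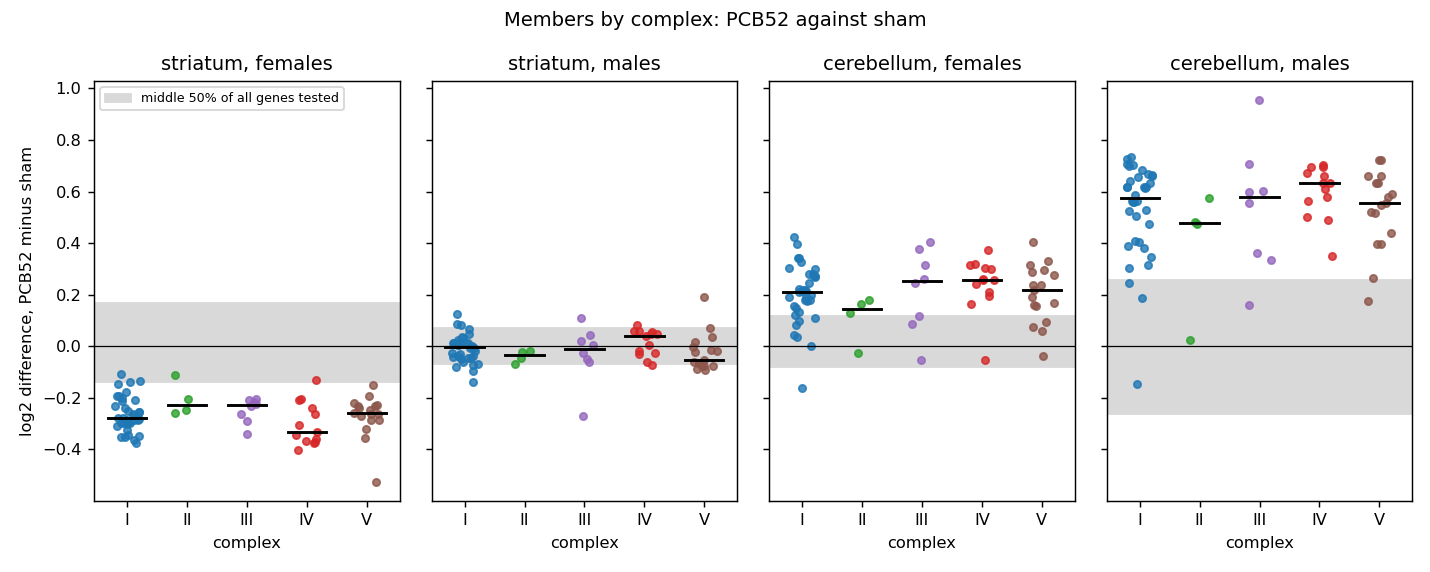
Log2 difference between PCB52 and sham animals (y axis) of each tested member, by complex (x axis), in 4 panels for region and sex; points are members, bars are medians and the grey band holds the middle 50% of all genes tested. Members lie below 0 in striatal females (median -0.26), around 0 in striatal males (-0.02) and mostly above 0 in the cerebellum (0.22 in females and 0.58 in males), and none passed the test.

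Other genes of the pathway were counted in the same way. In striatal females, 12 of 13 complex I assembly factors were below 0 (median -0.20), as were 16 of 17 genes of pyruvate dehydrogenase and the TCA cycle (-0.13) and 13 of 14 genes of inner-membrane carriers and cristae (-0.22). Of 13 transcriptional regulators of respiratory genes, 6 were below 0 (median 0.06). In cerebellar males, all 13 complex I assembly factors were above 0 (median 0.35), against 10 of 17 TCA cycle genes (0.07) and 6 of 14 regulators (-0.06). None of these genes passed the test.

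The ribosomal protein genes showed the members' pattern at a larger size. All 55 were below 0 in striatal females (median -0.31) and all 55 above 0 in cerebellar males (0.74). Among the marker lists, in striatal females 7 of 7 choroid plexus markers tested were above 0 (median 3.33), with a list mean of 8.10 in PCB52 female 20 but 0.97 to 2.18 in the other 5 PCB52 and 0.90 to 2.15 in the sham libraries. Of 14 projection neuron markers, 14 were below 0 (median -0.26). Their list mean was 8.3 and 8.2 in PCB52 females 14 and 24, but 9.01 to 9.21 in the other PCB52 and 8.90 to 9.37 in the sham libraries. In cerebellar males 7 of 10 granule cell markers were below 0 (-0.24; list mean 9.01 to 9.37 in sham and 8.66 to 9.32 in PCB52 libraries) and 7 of 10 astrocyte markers (-0.27). Their part in the members' differences was not tested.

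Between the regions, members were called in both treatments. In sham animals, averaged over the sexes, 26 of the 78 members were lower in the striatum than in the cerebellum and 4 were higher; the median of the 78 was -0.24 (log2). Of all 12446 genes tested, 35.5% were lower and 34.3% higher, so the members' share of lower calls was close to the background and their share of higher calls below it. Lower calls fell in complex I (13 of 36), complex II (2 of 4), complex III (3 of 8) and complex V (7 of 17), and in complex IV only Cox7b was lower and only Cox6b2 higher. Ndufa4, whose protein is regarded as a complex IV subunit, is among the lower calls counted with complex I. Without the 5 libraries with transcripts of both sexes, fewer members were called in each direction, and the median was -0.26. The share of all genes called in that fit is not given here. The complex medians were -0.27, -0.33, -0.13, 0.01 and -0.29 for complexes I to V.

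Ndufs1 did not overlap between the regions. It measured 162, 172 and 208 CPM (lowest, median and highest) in the striatum and 222, 258 and 295 CPM in the cerebellum of sham animals, and was the only member lower in every striatal than in every cerebellar library, as 10% of all genes tested were; 0 members and 11.4% of genes were higher in every striatal library. Its log2 difference was -0.58 ± 0.05 in sham animals (adjusted p = 5.79e-13, edgeR) and -0.52 ± 0.05 in PCB52 animals (adjusted p = 1.62e-12, edgeR). Ndufc2, which the complex I membrane arm needs for assembly, measured 57.9, 70.9 and 117 CPM in the sham striatum and 76.2, 120 and 159 CPM in the sham cerebellum, a difference of -0.72 ± 0.18 (adjusted p = 0.000733, edgeR).

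In complex II, Sdhb, whose promoter is printed above, measured 114, 138 and 206 CPM in the sham striatum and 144, 215 and 290 CPM in the sham cerebellum. It was lower by -0.67 ± 0.15 (adjusted p = 0.00013, edgeR), and Sdha by -0.36 ± 0.06. The membrane anchors Sdhc (-0.21 ± 0.14) and Sdhd (-0.30 ± 0.16) did not pass. In complex III, the Rieske iron-sulfur protein Uqcrfs1 measured 114, 139 and 199 CPM in the striatum and 172, 235 and 310 CPM in the cerebellum, a difference of -0.78 ± 0.14 (adjusted p = 8.89e-06, edgeR). The core proteins Uqcrc1 and Uqcrc2 were also lower, Uqcrc1 by -0.52 ± 0.12, while Uqcr11, the smallest subunit, was higher by 0.49 ± 0.21 (adjusted p = 0.0353, edgeR), a call lost without certain single libraries, such as striatum sham female 12 (0.41).

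Complex IV held the isoform pairs. Cox6b2, an isoform best known from testis, measured 0.62, 2.35 and 5.36 CPM in the sham striatum and 0.40, 0.79 and 1.84 CPM in the sham cerebellum, higher by 1.36 ± 0.33 (adjusted p = 0.000426, edgeR), while the common isoform Cox6b1 differed by -0.005 ± 0.19. Cox6b2 rested on few counts: over both treatments the median was 16 per striatal library (4 to 33) and 6.5 per cerebellar library (2 to 18). Cox7b, a small subunit needed for assembly of the complex, was lower by -0.61 ± 0.21 (adjusted p = 0.0099, edgeR). Cox4i1 (-0.06 ± 0.19), its hypoxia-linked isoform Cox4i2 (-0.37 ± 0.19), Cox6a1 (0.29 ± 0.21), Cox7a2 (0.32 ± 0.20), Cox7a2l (-0.37 ± 0.18) and Cox8a (0.15 ± 0.21) did not pass.

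In complex V the largest lower calls were in the catalytic head. Atp5f1c, its rotating central shaft, measured 172, 209 and 330 CPM in the sham striatum and 247, 345 and 481 CPM in the sham cerebellum, lower by -0.73 ± 0.16 (adjusted p = 9.94e-05, edgeR). Atp5f1a and Atp5f1b, the subunits that form the catalytic hexamer, were lower by -0.72 ± 0.10 and -0.42 ± 0.12. Not all of the head was lower: Atp5f1e averaged 189 CPM in the sham striatum and 151 CPM in the sham cerebellum, and did not pass. Of the 3 genes for the identical c-ring protein, Atp5mc3 was lower (-0.57 ± 0.16), and Atp5mc2 (-0.36 ± 0.18) and Atp5mc1 (0.16 ± 0.19) did not pass. Atp5mk was higher by 0.56 ± 0.20 (adjusted p = 0.0148, edgeR), with 97.5, 117 and 234 CPM in the striatum and 59, 79.1 and 114 CPM in the cerebellum.

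Ndufa4l2 and its paralog Ndufa4 differed in opposite directions. Ndufa4l2 measured 11.2, 14.1 and 19.9 CPM in the sham striatum and 2.76, 5.12 and 6.81 CPM in the sham cerebellum, with no overlap, and was higher by 1.52 ± 0.15 (adjusted p = 5.62e-12, edgeR). Ndufa4 was lower by -0.47 ± 0.19 (adjusted p = 0.0314, edgeR). Endothelial and mural cell markers, in which Ndufa4l2 is known to be expressed, were higher in the striatum for 10 of 11 genes, with list means of 5.29 to 6.00 log2 CPM in striatal and 4.22 to 5.19 in cerebellar libraries. Their part in the Ndufa4l2 difference was not tested.

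**Figure D4:**
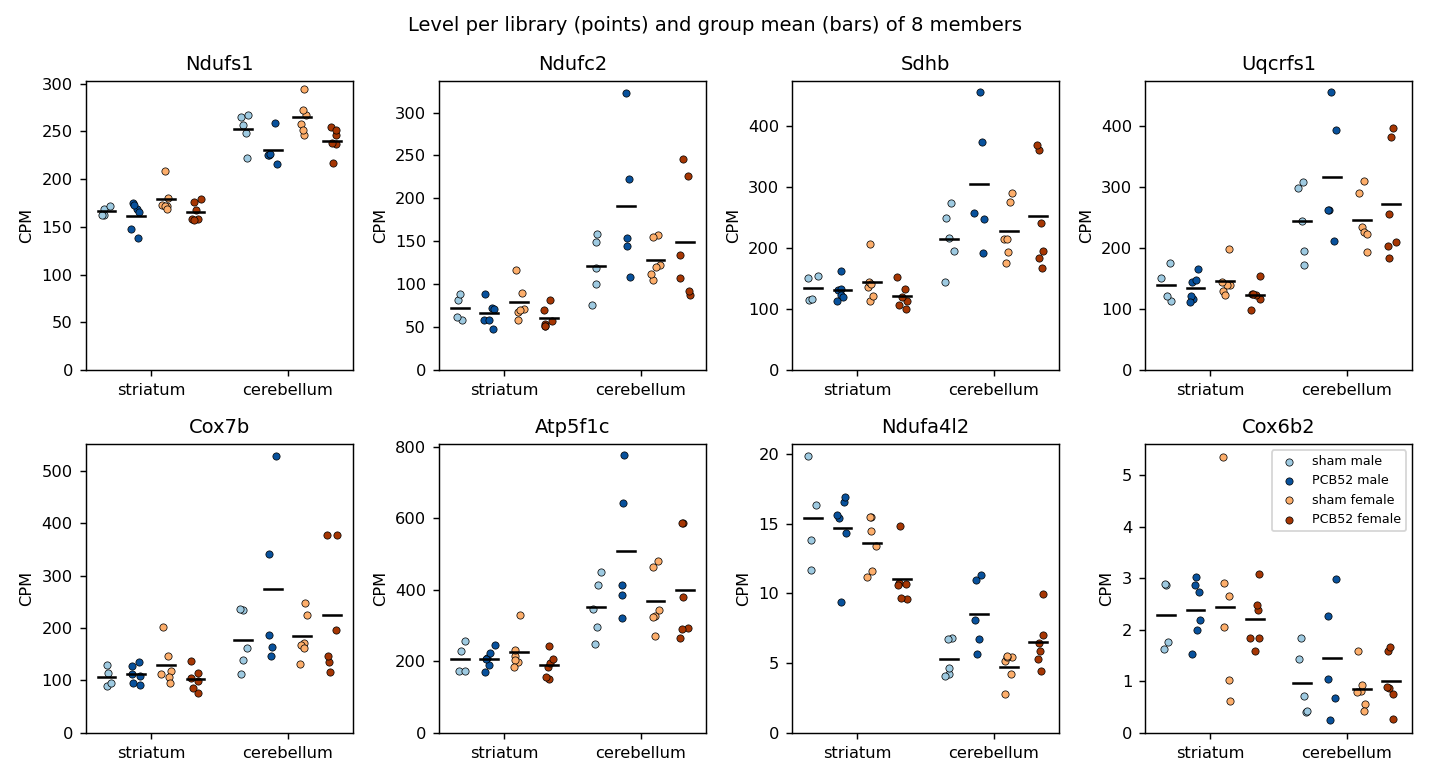
CPM per library (y axis) of 8 members in the striatum and the cerebellum (x axis); each point is 1 library, coloured by treatment and sex, and bars are group means. Ndufs1 separates the regions, Ndufa4l2 and Cox6b2 are higher in the striatum, and the highest cerebellar values of Ndufc2, Sdhb, Uqcrfs1, Cox7b and Atp5f1c are in PCB52 libraries.

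In PCB52 animals, 68 members were lower in the striatum than in the cerebellum (40.4% of all genes were) and 2 were higher (36.5%), with a median of -0.70. All 26 members lower in sham animals were among the 68 (every sham call and 38.2% of the PCB52 calls), and the 2 that were higher, Ndufa4l2 (0.78 ± 0.14) and Cox6b2 (0.96 ± 0.31), were higher in sham animals too. Over the 78 members the differences in the 2 treatments, which share no library, had a Pearson r of 0.915 and a Spearman rho of 0.853 across genes, which are not independent replicates. Without Ndufa4l2 and Cox6b2 these were 0.855 and 0.841. No such value over all genes is given here.

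The PCB52 regional difference minus the sham one was below 0 for 77 members, with a median of -0.57, against 50.9% of all genes. Of these, 59 members and 18.3% of genes had an unadjusted p under 0.05, but no gene passed in edgeR (0%) or limma, and DESeq2 called 3 genes and no member. Ndufs1 was the exception, at 0.06 ± 0.07. Without the 5 libraries with transcripts of both sexes the median was again -0.57. Without the 5 libraries of high ribosomal mean the median of this difference was 0.02, with 1 member at an unadjusted p under 0.05, and 41 members were lower and 4 higher in sham animals (38% and 36.5% of all genes in that fit) and 40 and 5 in PCB52 animals (37.1% and 36.6%), 39 and 3 of them in both (35% and 34.3%). With the ribosomal mean as covariate the counts were 53 lower and 13 higher in sham animals (41.7% and 39% of all genes) and 51 and 16 in PCB52 animals (42.1% and 39.2%). Against the fit without the covariate, 6 members turned from lower to higher in PCB52 animals: Atp5mc1, Cox8a, Ndufa2, Ndufa8, Ndufa11 and Ndufb2, named here after their values were seen.

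In all 6 regional fits, that is in each treatment with all libraries, without the 5, and with the covariate, 26 of the 78 members were lower in the striatum (30.5% of all genes were) and 2, Cox6b2 and Ndufa4l2, were higher (30.4%). The members' share of lower calls was thus close to that of all genes, and their share of higher calls below it. The fits of a treatment share libraries, so they are not independent. Complex I gave 13 of the 26, among them Ndufs1, Ndufv1 and Ndufv2 of the electron-accepting arm, complex II Sdha and Sdhb, complex III Uqcrc1, Uqcrc2 and Uqcrfs1, complex IV only Cox7b, and complex V 7 genes, among them 4 of the catalytic head. The 13 include Ndufa4, which the rule sorts with complex I by symbol. The 5 libraries had the highest member means of their regions: 4 were cerebellar PCB52 libraries and the striatal one was sham. Leaving them out therefore draws the 2 treatments together by the choice of libraries. Without them the sizes in the 2 treatments came close: -0.82 ± 0.11 and -0.81 ± 0.11 for Uqcrfs1, -0.72 ± 0.11 and -0.75 ± 0.11 for Sdhb, and -0.78 ± 0.12 and -0.76 ± 0.12 for Atp5f1c, in sham and PCB52 animals. Ndufa4l2 then stood at 1.52 ± 0.14 in sham and 1.04 ± 0.15 in PCB52 animals.

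**Figure D5:**
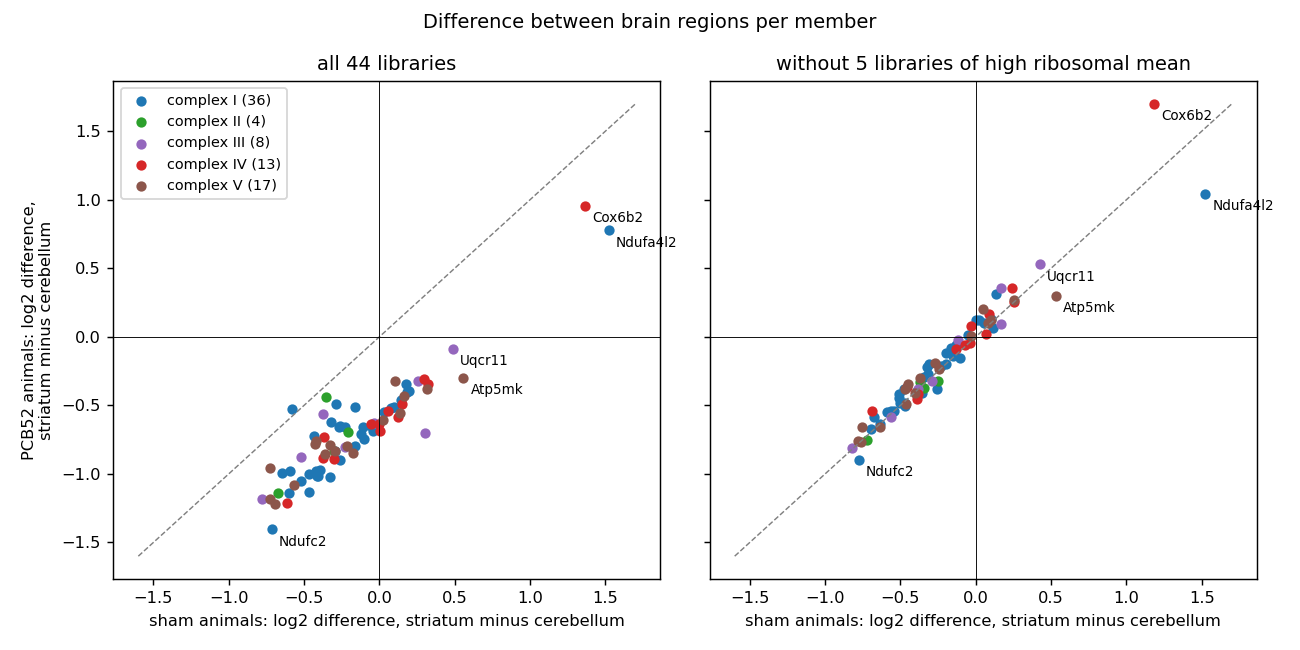
Log2 difference between striatum and cerebellum of each tested member in sham animals (x axis) and PCB52 animals (y axis), coloured by complex, with all 44 libraries (left) and without the 5 of high ribosomal mean (right); the dashed line marks equal differences. On the left nearly all points lie below the line, with medians of -0.24 in sham and -0.70 in PCB52 animals, and on the right they lie along it, with medians of -0.30 and -0.28.

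Other respiratory genes also differed between the regions. For this list and the next, the background in sham animals was 35.5% of all genes called lower and 34.3% called higher. Of 17 pyruvate dehydrogenase and TCA cycle genes, 12 were called lower and 2 higher in the sham striatum. Among the lower ones were Idh3g, a regulatory subunit of isocitrate dehydrogenase (-1.22 ± 0.10), and Fh, fumarase (-1.10 ± 0.10). Of 14 regulators of respiratory genes, 9 were lower and 1 higher: Esrrg, an estrogen-related receptor, by -1.77 ± 0.25, Nrf1 by -0.61 ± 0.08 and Tfam, which packages mitochondrial DNA, by -0.51 ± 0.12, while Tfb1m was higher by 0.80 ± 0.09. The electron carrier Cycs and its partner Cyc1 were lower by -0.75 ± 0.16 and -0.72 ± 0.15. Ppargc1a (-0.34 ± 0.19, adjusted p = 0.0997, edgeR) and Gabpa (-0.02 ± 0.08) did not pass. For 42 of the 81 members the reference holds a pseudogene or copy of the same name stem, Atp5f1c, Atp5mk, Cox7b and Ndufs4 among those named, and the counting could have split their reads.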

How the data were processed

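Gene counts of 44 libraries, 22 per region, were used as the authors deposited them, as whole-number counts per Entrez gene that were not normalized. Per the submitters' processing notes, FastQC, HISAT2 and the rn6 build were used; neither the counter nor the annotation or strand setting is given in the sources used here. Of 15319 gene IDs, 15230 (99.4%) were matched to RefSeq GRCr8 symbols. Replicates are separate animals, by the animal numbers in the labels. All pairs of replicate libraries differed by more than sampling noise (chi-square over its degrees of freedom at least 3.49).

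PCB52 was tested per region in a fit over its 4 groups, and the regions in a fit over all 8, with edgeR 4.0.16 in R 4.3.3 (TMM scaling, its default filter on low counts, robust quasi-likelihood F-test, Benjamini-Hochberg adjustment over all genes tested, threshold 0.05). Printed differences are log2 with standard errors; printed CPM and list means use TMM factors over both regions, list means with a prior count of 2. Groups were compared as means of the sexes where stated. The scripts were tested on simulated data. DESeq2 1.42.0, limma 3.58.1 (voom with quality weights), other scalings, no filter, only the groups compared, leaving out libraries and a replicate block were alternatives. Members named are those of lowest p per complex in a PCB52 comparison, those of largest called difference per complex between regions, the most and least abundant of each complex, and all isoform families; others named were chosen after their values were seen. The members and lists were chosen with earlier results of these data known. Labels pair 21 animals with both regions; their deviations had a median correlation of 0.111 (range -0.399 to 0.492). The result of 1 member is not reported here.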

Additional observations from a re-analysis of the deposited data

Results flagged for a closer look

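Of 168 groups of values examined for a sample far from the others, 16 held one. Chance alone marks about 1 in 20 such groups when they are independent. These groups share libraries and members, so the 16 cannot be set against that rate. Striatum sham female 12 accounted for 14 of the 16, each time as the highest of its group. Its mean over all members was 7.69 log2 CPM, against a group median of 7.02. By complex it stood at 7.36 for complex I (median 6.72), 7.95 for complex II (7.49), 7.67 for complex III (6.96), 7.65 for complex IV (6.89) and 8.39 for complex V (7.74). Single members were Atp5mc1 at 7.89 log2 CPM (median 7.25), Atp5mc3 at 8.48 (7.74), Cox6a1 at 9.89 (9.25), Cox6b1 at 8.25 (7.55), Cox7a2 at 8.09 (7.36), Cox7a2l at 7.95 (7.13), Cox8a at 9.53 (8.83) and Ndufa4 at 8.87 (8.09). The other 2 were Ndufa4l2 in the striatum, at 3.92 log2 CPM in PCB52 female 18 (median 3.45) and at 3.27 in PCB52 male 19 (median 3.98).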

How the results depend on the processing

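No PCB52 comparison called a member under any alternative run. With the ribosomal mean as covariate, chosen after seeing the data, the members' median moved to -0.0021 in striatal females, 0.0109 for the striatal female minus male difference, -0.0499 in cerebellar males, -0.28 for the regions in PCB52 animals and 0.0082 for the difference of the regional differences, and 66 members, 53 lower and 13 higher, were called between regions in sham animals (26 and 4 without it; limma 47, with 40 and 7, where 39.6% and 38% of all genes were called). Without the 5 libraries of high ribosomal mean, also chosen after seeing the data, the median was 0.0465 in cerebellar males, -0.11 over both sexes in the cerebellum, -0.28 for the regions in PCB52 animals, with 45 members called (70 with all libraries), and 0.0215 for the difference of the regional differences. The cause was not tested. Leaving out 1 library moved the median between -0.37 and -0.11 in striatal females (highest without sham female 12), between -0.09 and 0.10 in striatal males (without sham males 1 and 9), between 0.29 (without PCB52 male 23) and 0.72 in cerebellar males, between 0.02 (without PCB52 female 20) and 0.34 in cerebellar females, between -0.31 and -0.18 for the regions in sham animals and between -0.77 and -0.57 in PCB52 animals. With the animal as a replicate block, 4 members were higher and 25 lower between regions in sham animals (34.2% and 33.7% of all genes) and 2 and 58 in PCB52 animals (37.8% and 38%), and the paired fit changed no call of a named member. DESeq2 called 23 genes in striatal females, 9 in cerebellar females, 21 over both sexes and 4 for the sex difference in the cerebellum, where edgeR called 0. Of the named members, Uqcr11 lost its regional call in 7 settings and Atp5mk in 1. Spread between libraries limits the PCB52 comparisons: the pooled SD of the member mean was 0.25 log2 units in the striatum and 0.48 in the cerebellum.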
